A study of Canis lupus familiaris with 8 samples.

Results

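SOX9, COL2A1, ACAN and ALPL, 4 genes of the cartilage and bone lineages, were followed through 8 one-colour arrays of a canine mammary carcinoma line. They were chosen by name, because canine mammary tumours can form cartilage and bone. Earlier results of these data were known when the choice was made. Every gene probe whose accession maps to one of the 4 symbols was kept. The 4 genes had 10 probes out of 43603 on the array, and the array held 1458 genes that could be named. Only 2353 probes could be named in all, so probes without a name here may include others of these genes. ALPL had 4 of these probes, COL2A1 had 3, ACAN had 2 and SOX9 had 1. Of the 10 probes, 6 were bright enough to be tested and at least 1 of them belonged to each gene. The other 4 probes are described by their signal.

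The 8 arrays formed 4 groups of 2. Star CSC were cells sorted by flow cytometry from CMT-Star as CD44+, CD24-/low and ALDH+, the surface and enzyme profile used by the submitters to define cancer stem cells (CSC). Star parent was the unsorted CMT-Star subline, which had been selected from CMT-Stylo over months in rising doxorubicin until it resisted 100 nM, and both Star groups are labelled as doxorubicin treated. The labels do not say whether the drug was present when the Star cells were harvested. Stylo CSC were cells sorted by the same gate from CMT-Stylo, and Stylo parent was the unsorted CMT-Stylo line, both without drug treatment. All 4 groups came from a single line and its single resistant subline grown in culture, so no group samples more than 1 tumour. The labels do not say that the 2 arrays of a group came from separate cultures, so the spread behind each p-value may be technical only. The comparisons asked what sets the resistant subline apart from the line it came from, and what sets sorted cells apart from their unsorted culture.

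SOX9 is the transcription factor that commits mesenchymal cells to the chondrocyte fate and that switches on the genes for cartilage matrix. Type II collagen, encoded by COL2A1, forms the fibrils of hyaline cartilage, and aggrecan, encoded by ACAN, is the large proteoglycan that fills the space between them and holds water. ALPL encodes tissue-nonspecific alkaline phosphatase, a membrane-anchored enzyme that removes pyrophosphate and so lets mineral form in bone and calcified cartilage. Canine mammary mixed tumours contain cartilage or bone beside epithelium. SOX9 is also made by mammary epithelial cells in the mouse, and alkaline phosphatase is made in liver, kidney and other tissues.

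The arrays differed in brightness. The 75th percentile of the signal was 88.3 and 69.2 on the Stylo parent arrays and between 296 and 536 on the other 6. Between 46.7% and 47.4% of spots were well above background on the Stylo parent arrays, against 55.5% to 60.7% on the others, and no spot was saturated. The 4 Star arrays shared 1 slide and the 4 Stylo arrays another, so any contrast of Star with Stylo is also a contrast of slides, and the 2 cannot be told apart. Replicate arrays correlated at 0.982 to 0.996 over the tested probes. Of 9 listed mammary epithelial markers, 4 had a named probe: KRT14 was well above background on all 8 arrays, CDH1 on 6, MUC1 on the 4 Star arrays and KRT19 on 3. Of 7 listed chondrocyte markers only SOX9, ACAN and COL2A1 had a named probe, and of 6 listed osteoblast markers only ALPL had one.

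The 4 genes did not move together. At the brightest probe of each gene, ALPL was highest in Stylo CSC and lowest in Stylo parent. COL2A1 was detected only on the Star arrays, and the scaled levels of SOX9 and ACAN were highest in Stylo parent. A scaled level is log2 of the processed signal less the log2 of that array's 75th percentile, so a level of 0 is a probe as bright as that percentile. Genes were called where limma gave an adjusted p (Benjamini-Hochberg, over all 26737 tested probes) below 0.05 and the change was at least 2-fold.

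**Figure D1:**
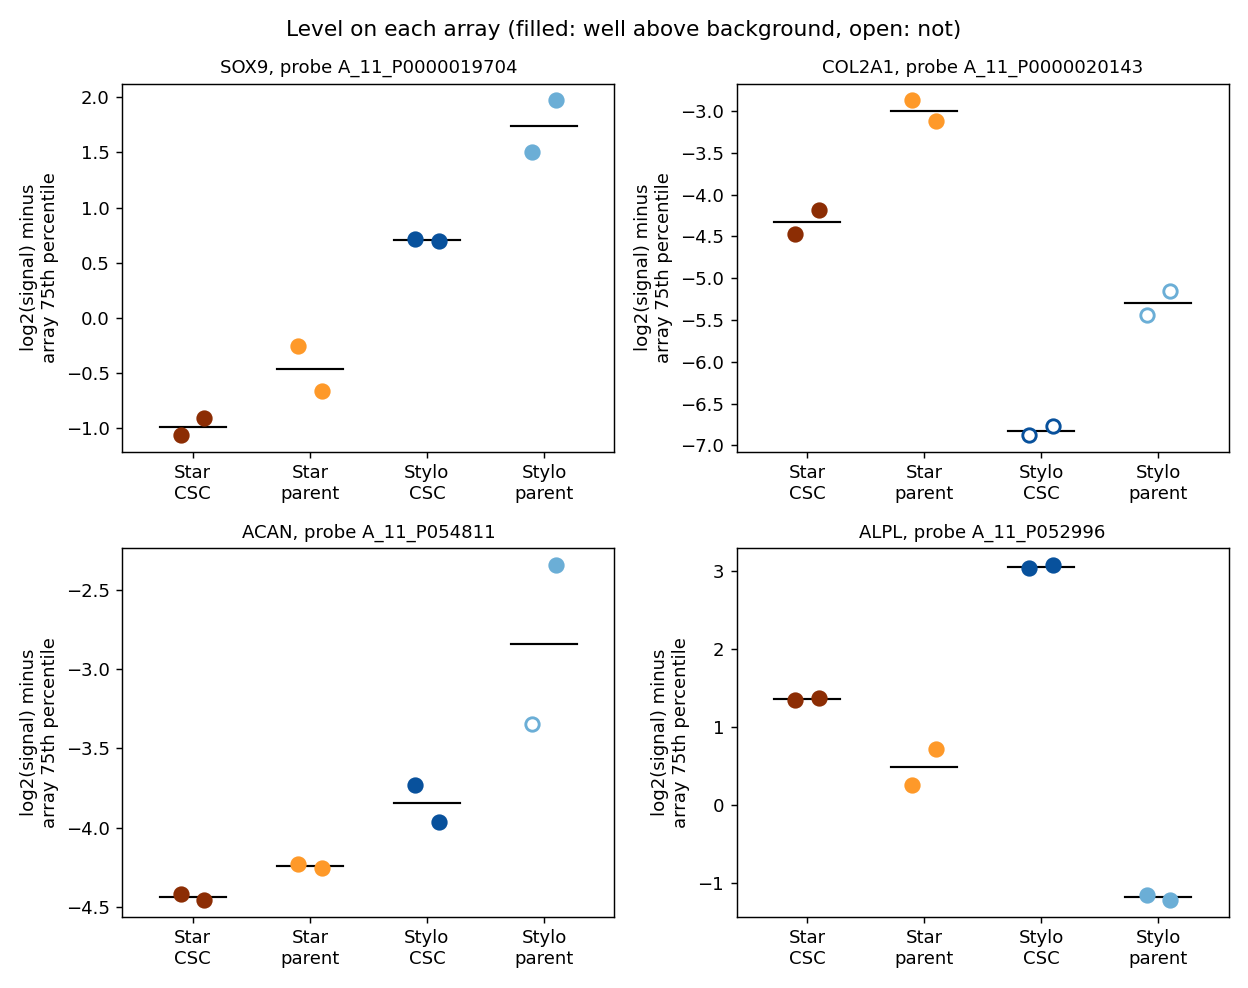
Scaled level (log2 of signal minus the array's 75th percentile) of the representative probe of SOX9, COL2A1, ACAN and ALPL on each of the 8 arrays, by group. Each point is 1 array, filled where the probe was well above background, and the bar is the mean of the 2 arrays; ALPL runs from -1.21 in Stylo parent to 3.07 in Stylo CSC, and COL2A1 has open points on every Stylo array.

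SOX9, the regulator, was read by a single probe, A_11_P0000019704, which was well above background on all 8 arrays, as were 42.1% of all probes. Its scaled level was -0.26 and -0.67 in Star parent, against 1.50 and 1.97 in Stylo parent. The Star parent arrays lay below both Stylo parent arrays, and the fitted change was -2.20 ± 0.20 (log2, SE), a level 4.60-fold lower (adjusted p = 0.000136). Before scaling, SOX9 signal was 310.2 and 208 in Star parent, against 250.5 and 272 in Stylo parent, and these signals overlapped. The scaled difference is therefore one relative to the other probes of each array, and the dimmer Stylo parent arrays moved with it. Their part in the result was not tested. In RNA from whole cultures, fewer cells that make a transcript and less of it per cell cannot be told apart.

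SOX9 was also lower in the sorted cells of CMT-Stylo. Its scaled level was 0.71 and 0.70 in Stylo CSC, against the 1.50 and 1.97 of Stylo parent, a change of -1.03 ± 0.20 (adjusted p = 0.00427). The sorted arrays lay lower in scaled level, while their unscaled signals of 507 and 480.4 lay above the 250.5 and 272 of Stylo parent. SOX9 stood at -1.06 and -0.91 in Star CSC, against -0.26 and -0.67 in Star parent. These groups did not overlap either, but the change of -0.52 ± 0.20 did not pass the test (adjusted p = 0.104; 95% interval -1.02 to -0.02). Between the sorted populations SOX9 was 3.23-fold lower in Star CSC than in Stylo CSC (-1.69 ± 0.20, adjusted p = 0.00106), and here the unscaled signals ran the same way, with 257 and 247 in Star CSC against 507 and 480.4 in Stylo CSC. Spike-in scaling ended this call (-1.05, adjusted p = 0.107). The order of the scaled levels was Stylo parent, Stylo CSC, Star parent, Star CSC, and the last 2 did not differ by the test. The call in Stylo CSC was lost under 4 of 6 other scalings or corrections (-0.93 to -0.29) and without Stylo parent replicate 2 (-0.80), and its direction turned with spike-in scaling (1.06).

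COL2A1, the fibrillar collagen of cartilage, was detected on the Star arrays only. The signal of its brightest probe, A_11_P0000020143, was 24.3 and 25.6 in Star CSC and 50.8 and 38.1 in Star parent, against 2.63 and 2.71 in Stylo CSC and 2.03 and 1.94 in Stylo parent. All 4 Star values were well above background and none of the 4 Stylo values was, a pattern shared by 2.13% of all probes. The lowest signals counted as well above background on the 4 Stylo arrays were between 7.91 and 11.4, so a Stylo level up to about that signal would have been missed. Higher signals can be missed too, since an ALPL probe read 20.9 on Star CSC replicate 2 without being counted. Bounds built on these lowest signals are therefore approximate.

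Because the Stylo arrays give only a ceiling, the contrasts between lines are bounds. COL2A1 was at least 1.17-fold higher in Star parent than in Stylo parent and at least 1.39-fold higher in Star CSC than in Stylo CSC. Both bounds are under the 2-fold limit. The limma calls (adjusted p = 4.43e-05 and 0.000133) belong to fitted changes of 2.30 and 2.50, which use the below-background Stylo values. Each bound sets the mean of the detected group against the higher of the probe's own signal and the lowest detected signal on each array of the dim group. In both contrasts normexp background correction turned the fitted sign (-1.40 in Star parent against Stylo parent, -0.16 in Star CSC against Stylo CSC). No fold is given for Stylo CSC against Stylo parent, where the probe was below background in both groups.

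Within the resistant subline both groups could be measured. COL2A1 stood at -4.47 and -4.18 in Star CSC, against -2.87 and -3.12 in Star parent. Both sorted arrays lay below both unsorted ones, and the change of -1.33 ± 0.16 amounted to a level 2.51-fold lower (adjusted p = 0.00398). The call was lost with cyclic loess (-0.92) and normexp (-0.80), and spike-in scaling turned its sign (0.34). The other COL2A1 probes did not repeat the detection. A_11_P050066, printed as 5 spots, ranged from 1.95 to 9.68 over the 8 arrays and A_11_P053401 from 2.36 to 7.56, and neither was well above background on any array. The highest signals of A_11_P050066 were the 9.68 and 7.65 of Star parent.

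ACAN, the proteoglycan of cartilage, was dim in every group. The signal of probe A_11_P054811 was 25.1 and 21.2 in Star CSC and 19.8 and 17.4 in Star parent, against 23.3 and 19.0 in Stylo CSC and 8.70 and 13.6 in Stylo parent. It was well above background on 7 arrays, all but Stylo parent replicate 1. The second ACAN probe, A_11_P0000024093, gave 1.59 to 2.34 and was not well above background on any array, which was the case for 33.9% of all probes.

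Scaling reverses the order of these signals in the contrasts with Stylo parent. The scaled level of ACAN was -4.23 and -4.25 in Star parent, against -3.34 and -2.35 in Stylo parent, and it was called lower in Star parent (-1.40 ± 0.31, adjusted p = 0.00677), although its unscaled signal was higher there. In the same way it stood at -3.73 and -3.96 in Stylo CSC, a change of -1.001 ± 0.31 from Stylo parent (adjusted p = 0.0259). On the dim Stylo parent arrays even the lowest detected signal scales to a level above these of Star parent and Stylo CSC. A probe at that limit would therefore also read higher in Stylo parent. The undetected second ACAN probe did so, at a mean of -5.52 against -7.37 in Star parent and -7.13 in Stylo CSC. How far the 2 ACAN calls rest on this was not tested. The fall in Stylo CSC was 2.002-fold, just past the limit, and rested on 1 detected Stylo parent array of 2. It was lost or its sign turned in 10 of 19 alternatives, among them spike-in scaling (1.09, the sign turned), cyclic loess (-0.37) and the fit of the 4 Stylo arrays alone (adjusted p = 0.0768). Without Stylo parent replicate 2 the changes were -0.90 in Star parent and -0.50 in Stylo CSC, neither called.

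In the contrasts without Stylo parent ACAN showed no call under the main scaling. It stood at -4.42 and -4.45 in Star CSC, against -4.23 and -4.25 in Star parent (-0.19 ± 0.31, adjusted p = 0.66; 95% interval -0.95 to 0.57). The 2 groups lay close together, and the sign of this small difference turned in 4 of 6 scalings or corrections. With spike-in scaling the change was 1.47 and passed both limits (adjusted p = 0.00714). Star CSC against Stylo CSC gave -0.59 ± 0.31 (adjusted p = 0.152; 95% interval -1.35 to 0.17).

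**Figure D2:**
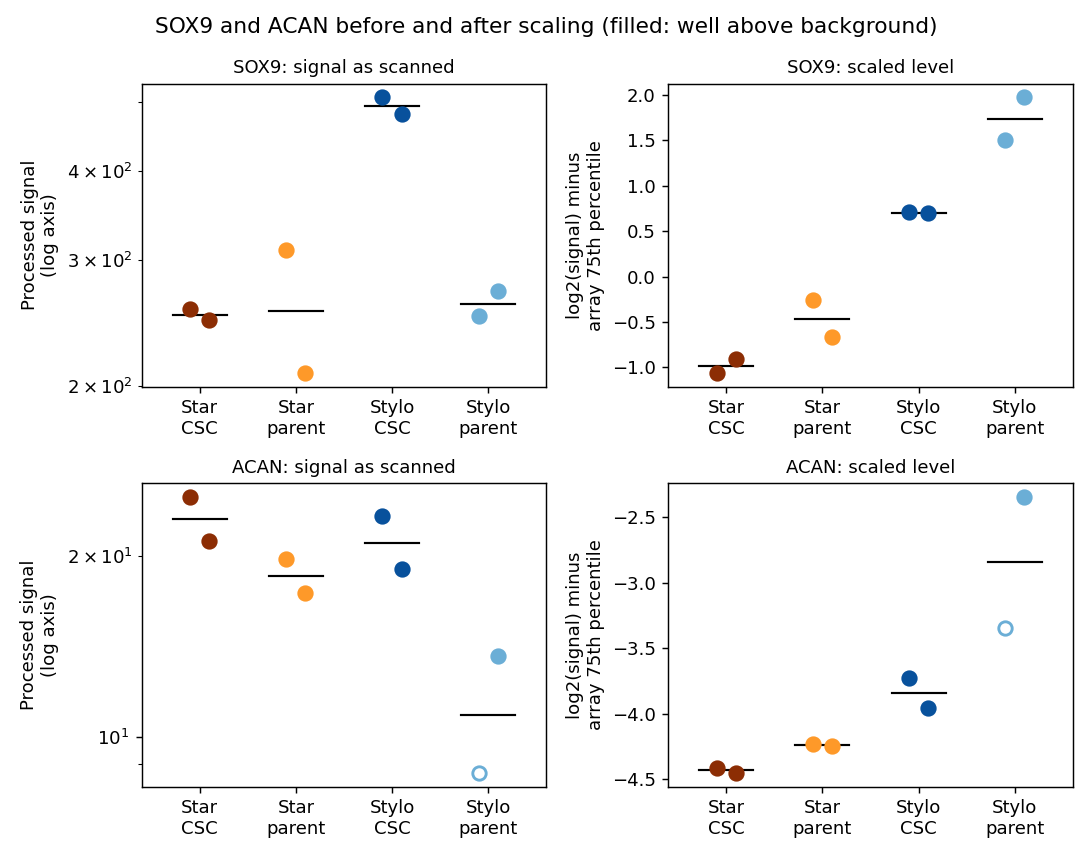
Processed signal as scanned (left, log axis) and scaled level (right, log2 of signal minus the array's 75th percentile) of SOX9 and ACAN on each array, with 2 arrays per group; filled points are well above background and bars are means over the 2 arrays (geometric for the signal). SOX9 signal is 250.5 and 272 on the Stylo parent arrays and overlaps that of Star parent, whereas its scaled levels of 1.50 and 1.97 are the highest of the 4 groups.

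ALPL, the mineralisation enzyme, had the widest range of the 4 genes. Its brightest probe, A_11_P052996, was well above background on all 8 arrays. The signal was 2529.9 and 2494 in Stylo CSC, against 39.9 and 29.9 in Stylo parent. The sorted arrays were far brighter in ALPL than the unsorted ones, with no overlap, and the scaled levels of 3.03 and 3.07 in Stylo CSC against -1.15 and -1.21 in Stylo parent gave a change of 4.23 ± 0.16, or 18.8-fold (adjusted p = 1.24e-05). The rise in Stylo CSC passed the test in all 21 alternatives, with a log2 change of 2.95 to 6.32. Several of these cannot change the fold, such as leaving out a Star array or adding the replicate block. They are therefore not independent checks.

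At its brightest probe ALPL was higher in the resistant subline than in its parent line before any sorting. The other tested ALPL probes were below background in both of these groups. Signal of the brightest probe was 443 and 544 in Star parent, against 39.9 and 29.9 in Stylo parent. Both Star parent arrays were brighter, and after scaling the change was 1.67 ± 0.16, or 3.17-fold higher (adjusted p = 0.00016), but normexp background correction ended the call (0.71). Sorting CMT-Star gave signals of 1364 and 1203 in Star CSC, against 443 and 544 in Star parent. The Star groups did not overlap, and the scaled change of 0.88 ± 0.16, or 1.83-fold, passed the p-value but not the fold limit (adjusted p = 0.0124; 95% interval 0.48 to 1.27). It reached the fold limit with median scaling (1.11), with spike-in scaling (2.54) and without Star parent replicate 2 (1.11). The p-value missed the threshold in the fit of the 4 Star arrays alone (adjusted p = 0.0506), without Star CSC replicate 2 (0.0582) and for the mean of the tested ALPL probes (0.0731).

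Sorted cells of the resistant subline held less ALPL than sorted cells of the sensitive line. The scaled level was 1.35 and 1.38 in Star CSC, against 3.03 and 3.07 in Stylo CSC, a difference of -1.69 ± 0.16, or 3.23-fold lower (adjusted p = 0.000448), a call that spike-in scaling ended (-1.05, adjusted p = 0.107). The order was therefore Stylo CSC, Star CSC, Star parent, Stylo parent, and Star CSC and Star parent, neighbours in it, were not called different. The change on sorting was itself smaller in CMT-Star than in CMT-Stylo, by -3.35 ± 0.23 on the log2 scale (adjusted p = 9.29e-05). That difference passed in all 20 alternatives (-3.78 to -2.11), some of which, such as the replicate block, leave its size unchanged.

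The other ALPL probes were dimmer and only partly bore out this order. A_11_P0000039339 had a signal of 84.3 and 72.3 in Stylo CSC, against 1.85 and 1.65 in Stylo parent, and was well above background on the Stylo CSC arrays alone, as were 0.47% of all probes. It was at least 2.39-fold higher in Stylo CSC than in Stylo parent and at least 11.4-fold lower in Star CSC than in Stylo CSC. The limma p-values (adjusted p = 1.75e-05 and 5.12e-05) belong to the fitted changes of 3.53 and -3.63. Normexp turned the first of these to -0.78. It did not register the Star parent level, with 3.17 and 2.29 there.

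A_11_P0000023408 was also well above background on the Stylo CSC arrays alone, at 16.4 and 21.3. It gave 4.85 and 20.9 in Star CSC, a wide split between replicates, and its changes did not pass the test (adjusted p = 0.208 for Stylo CSC against Stylo parent and 0.0992 for Star CSC against Stylo CSC). The rise in Stylo CSC was called in 6 alternatives: quantile normalization (2.32), cyclic loess (2.28), spike-in scaling (3.18), the fit of the 4 Stylo arrays alone (adjusted p = 0.011) and the fits without either Star CSC array (0.0101). Normexp turned its sign (-1.69), and without Star CSC replicate 2 the fall in Star CSC against Stylo CSC was called (-2.77, adjusted p = 0.00239). A_11_P209833 ran from 3.19 to 12 and was well above background on Star parent replicate 2 only. When the tested ALPL probes were averaged, the rise in Star parent over Stylo parent turned to -0.20, whereas the rise in Stylo CSC stayed called. Under the 75th-percentile scaling the rise of ALPL in Star parent was called at 1 probe, and that in Stylo CSC at 2.

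**Figure D3:**
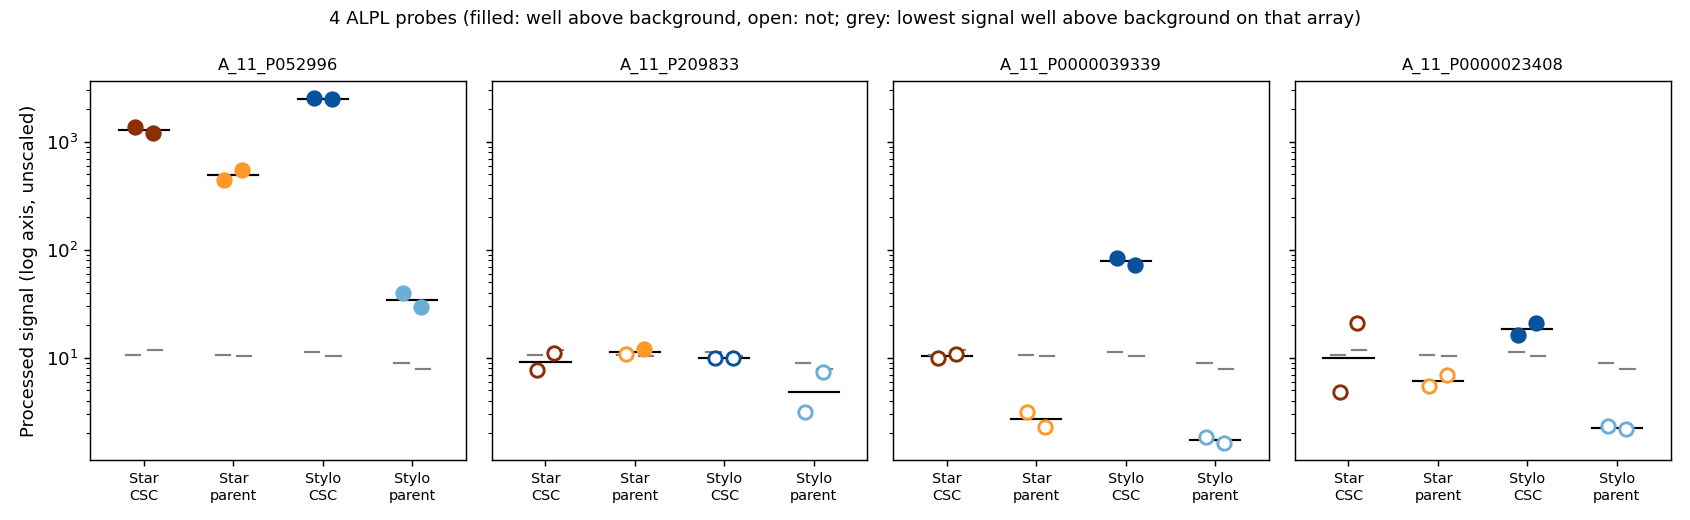
Processed signal (log axis, not scaled) of the 4 ALPL probes on each array, by group, with 2 arrays per group; black bars are geometric means, filled points are well above background and grey dashes mark the lowest signal counted as such on that array. A_11_P052996 spans 29.9 in Stylo parent to 2529.9 in Stylo CSC, while A_11_P0000039339 clears background in Stylo CSC alone, at 84.3 and 72.3.

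Because SOX9, ACAN and ALPL sit on the same arrays, the difference between their changes does not depend on the constant subtracted from each array. ALPL changed by 5.26 more than SOX9 in Stylo CSC against Stylo parent, by 3.87 more in Star parent against Stylo parent and by 1.40 more in Star CSC against Star parent (log2). In each of these the arrays of the 2 groups did not overlap. In Star CSC against Stylo CSC the 2 genes changed equally, both by -1.69. ACAN changed by 0.03 more than SOX9 in Stylo CSC against Stylo parent, where the arrays overlapped. It changed by 1.101 more in Star CSC against Stylo CSC, by 0.80 more in Star parent against Stylo parent and by 0.33 more in Star CSC against Star parent, where they did not overlap. The ACAN differences against Stylo parent do depend on background handling. With normexp ACAN fell further than SOX9 in Star parent (-1.77 against -1.42) and in Stylo CSC (-1.78 against -0.29). ACAN was well above background on only 1 of the 2 Stylo parent arrays. With 2 arrays against 2, an exact two-sided permutation test cannot go below p = 0.333, and none was used on these differences.

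The calls among the 4 genes are set here beside those of all tested probes. The shares over all probes count every call, also those with both groups below background, which the gene counts leave out. The share for the change on sorting likewise includes probes not measurable in both lines. In Star parent against Stylo parent 2 genes were called higher (COL2A1, ALPL) and 2 lower (SOX9, ACAN), while calls were made for 56.5% of tested probes (24.6% higher, 31.9% lower). In Stylo CSC against Stylo parent ALPL was called higher and SOX9 and ACAN lower among 3 measured genes, against 54% of probes (21.9% higher, 32.1% lower). In Star CSC against Star parent only COL2A1 was called, lower, against 9.69% of probes (3.21% higher, 6.48% lower). In Star CSC against Stylo CSC COL2A1 was called higher and SOX9 and ALPL lower, against 29.4% of probes (12.6% higher, 16.8% lower). Of 3 genes measurable in both lines ALPL alone had a called difference in its change on sorting, against 52.1% of probes (28.2% higher and 24% lower in CMT-Star). The differences for SOX9 (0.51 ± 0.29, 95% interval -0.20 to 1.22) and ACAN (0.81 ± 0.44, 95% interval -0.27 to 1.88) did not pass (adjusted p = 0.167 and 0.153). The first 2 comparisons share the Stylo parent arrays, so their values are not independent. In these counts the COL2A1 calls against Stylo groups use below-background Stylo values, and their bounds are under 2-fold. The ACAN calls are against Stylo parent, where it was detected on 1 of 2 arrays.

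**Figure D4:**
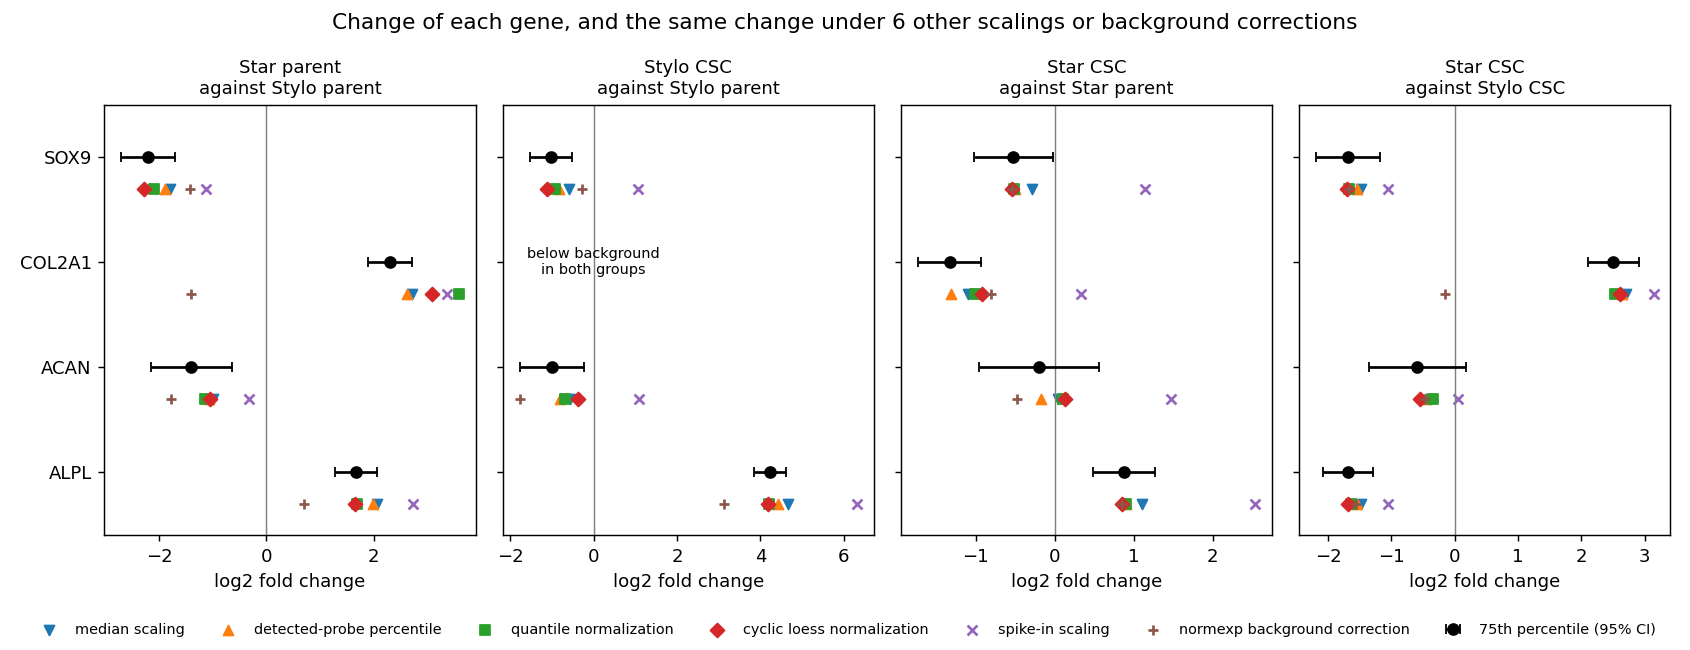
log2 fold change of SOX9, COL2A1, ACAN and ALPL in 4 comparisons, with the main 75th-percentile scaling in black (bars are 95% intervals, n = 2 arrays per group) and 6 other scalings or background corrections as coloured symbols below; COL2A1 was below background on the Stylo arrays, so its points against a Stylo group are fitted values and not folds. The ALPL rise in Stylo CSC lies above 3.1 under every setting plotted. Spike-in scaling moves SOX9 and ACAN to the positive side in both sorted against unsorted comparisons, and normexp moves COL2A1 below 0 in Star parent against Stylo parent.

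Other listed genes of cartilage and bone were called in both directions in Star parent against Stylo parent, where 24.6% of all tested probes were called higher and 31.9% lower. Of 27 listed cartilage matrix genes 3 were tested. Biglycan (BGN), a small proteoglycan of bone and cartilage, was higher in Star parent (2.60 ± 0.15), and decorin (DCN), a related proteoglycan that binds collagen fibrils, was lower (-5.47 ± 0.10). Of 31 cartilage regulators 6 were tested, with 3 higher and 2 lower: the bone morphogenetic protein BMP4 rose by 2.24 ± 0.40 and the Wnt ligand WNT5A fell (-4.42 ± 0.38). Of 24 bone matrix and mineral genes 5 were tested, with 1 higher and 3 lower. The type I collagen chain COL1A2 was higher (1.096 ± 0.23) and its partner chain COL1A1 lower (-3.01 ± 0.12), and the carbonic anhydrase CA2, which osteoclasts use to make acid, was lower (-5.54 ± 0.59). Of the 2 tested bone regulators the homeobox factor MSX2 was lower (-3.46 ± 0.22). Among 6 enzymes and receptors that build or cut cartilage matrix 2 were higher, and the protease inhibitor TIMP3 was at least 1.27-fold higher, although normexp turned it (-1.21). The list medians were -0.36, 0.60, -1.04, -1.73 and 0.34 in that order, beside a median of -0.20 over all tested probes. Leaving out Star parent replicate 1 ended the call of COL1A2 (0.75), and leaving out Stylo parent replicate 2 ended that of TIMP3 (0.87). Of the 4 fibroblast markers with a named probe (COL1A1, COL1A2, DCN and THY1), 1 was higher and 2 were lower in Star parent, with a median of -1.36. Of the 4 epithelial markers KRT14 was lower. CDH1 was called higher, but it was below background in Stylo parent, and its Star parent level did not exceed the lowest detected levels there. The summed scaled signal of the 4 was 0.904 to 1.06 in Star parent against 2.75 to 3.64 in Stylo parent. That sum was mostly KRT14, which stood at -0.55 and -0.26 in Star parent against 1.38 and 1.81 in Stylo parent. The part of these cell types in the ALPL rise there was not tested.

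In Stylo CSC the bone matrix and mineral genes moved both ways, with 2 higher and 2 lower of 5 tested, and no tested cartilage matrix gene was called lower. Over all tested probes 21.9% were called higher and 32.1% lower. BGN rose by 3.06 ± 0.15 and DCN by 1.64 ± 0.10, both of the 3 tested cartilage matrix genes that were called, and COL1A2 by 3.03 ± 0.23 and COL1A1 by 2.42 ± 0.12. CA2 (-2.90 ± 0.59) and MSX2 (-2.59 ± 0.22) were lower, but spike-in scaling ended both calls (-0.81 and -0.50). Among cartilage regulators 2 rose and 1 fell: the calcium channel TRPV4 was at least 3.10-fold higher and the receptor BMPR1B was lower (-1.03 ± 0.13). Both tested bone regulators fell, and no enzyme that builds or cuts cartilage matrix had a call with a detected group. Of the GPI-anchored proteins, the class of membrane protein to which ALPL belongs, THY1 rose (2.73 ± 0.13) and the prion protein PRNP fell (-1.60 ± 0.15), a call that normexp ended (-0.94) and spike-in scaling turned (0.50). The medians were 1.64 for cartilage matrix, 0.16 for cartilage regulators, -0.99 for bone matrix and mineral, -2.20 for bone regulators and 0.62 for the matrix enzymes, against -0.27 over all probes. Normexp turned TRPV4 (-0.74). The fall of BMPR1B was not called with median scaling (-0.59) or the detected-probe percentile (-0.83), turned with spike-in scaling (1.06), and was not called when replicate 2 of Stylo CSC (-0.91) or of Stylo parent (-0.97) was left out.

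Fibroblast markers moved with ALPL in this comparison. Of 6 listed, 4 had a named probe, all 4 were well above background on every array and all 4 rose, with a median of 2.58. Their summed scaled signal, in units of the array's 75th percentile, was 607.9 to 648 in Stylo CSC, against 76.9 to 83.5 in Stylo parent. COL1A2 made up 91.9% to 92.7% of that sum in Stylo CSC and 87.6% to 90.1% in Stylo parent, and the other 3 summed to 47.3 to 49.2 in Stylo CSC against 8.30 to 9.55 in Stylo parent. Of the epithelial markers, CDH1 was at least 6.12-fold higher in Stylo CSC, although normexp turned it (-0.087). The summed scaled signal of the 4 was 2.15 to 2.32 there against 2.75 to 3.64 in Stylo parent. KRT14 was the largest part of both sums, at 0.59 and 0.64 in Stylo CSC against 1.38 and 1.81 in Stylo parent (log2). MUC1 and KRT19 were below background in both groups. Of 2 tested endothelial and 2 tested leukocyte markers, 1 of each fell in Stylo CSC. In Star CSC 1 of each was called higher than in Stylo CSC. Likewise 1 endothelial marker was called higher and 1 leukocyte marker lower in Star parent than in Stylo parent. A leukocyte marker was also called higher in Star CSC than in Star parent. In each of these higher calls the dimmer group was below background on both arrays. Only the endothelial call in Star CSC had a bound, of 1.63-fold. In the others the mean level did not exceed the mean of the dimmer group's lowest detected levels. The part of these cell types in the ALPL result was not tested.

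In Star CSC against Star parent the calls in the wider cartilage and bone lists were all lower. Over all probes 3.21% were called higher and 6.48% lower. COL9A2, a chain of the type IX collagen that coats type II fibrils, fell (-1.19 ± 0.24, adjusted p = 0.0169), the only call among 3 cartilage matrix genes. COL2A1 fell in the same comparison. The call of COL9A2 was lost without Star CSC replicate 1 (adjusted p = 0.0688), without Star parent replicate 2 (-0.97) and under 5 of 6 scalings or corrections. Of 6 cartilage regulators 3 fell, led by BMP4 (-1.84 ± 0.40), which lost its call without Star parent replicate 1 (adjusted p = 0.0769) or 2 (0.0821) and in the fit of the Star arrays alone (0.0748), and stood at -0.18 with spike-in scaling. No bone matrix gene, bone regulator or matrix enzyme was called. The medians of the 5 lists were -0.72, -0.85, -0.40, -0.10 and -0.31, against -0.10 over all probes. None of the 4 fibroblast markers was called, and their summed scaled signal, at least 95.4% of it COL1A2, was 113.9 to 125 in Star CSC against 126 to 198 in Star parent. KRT19 was the 1 epithelial marker called (2.34 ± 0.48), and its call was lost with normexp (0.26) and without either Star CSC array or Star parent replicate 1 (adjusted p = 0.0589 to 0.0724).

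In Star CSC against Stylo CSC 2 of 3 cartilage matrix genes and 2 of 5 bone matrix genes were called lower and none higher, beside 16.8% lower and 12.6% higher over all probes. DCN (-7.00 ± 0.10) and BGN (-1.18 ± 0.15) were lower among cartilage matrix genes and COL1A1 (-6.27 ± 0.12) and COL1A2 (-2.33 ± 0.23) among bone matrix genes. The call of BGN was lost with median scaling (-0.98), spike-in scaling (-0.54) and normexp (-0.92), and that of COL1A2 with quantile normalization (-0.87). WNT5A was lower (-5.58 ± 0.38), the only call among 6 cartilage regulators. The osteoclast protease CTSK was higher (2.10 ± 0.11), MSX2 was lower (-1.36 ± 0.22), the protease MMP3 was at least 1.48-fold higher and TIMP1 was lower (-1.46 ± 0.13), although TIMP1 was at 0.00055 with quantile normalization and lost its call with cyclic loess (-0.65) and spike-in scaling (-0.82). MSX2 was not called with spike-in scaling (-0.73) or normexp (-0.97), and MMP3 was at -0.0012 with normexp. The medians of the 5 lists were -1.18, -0.24, -1.31, 0.37 and -0.65, against -0.10 over all probes. The GPI-anchored THY1 was lower (-2.82 ± 0.13) and PRNP higher (1.64 ± 0.15). Of 4 epithelial markers 2 were higher and 2 lower. All 4 fibroblast markers were lower (median -4.55), with a summed scaled signal of 113.9 to 125 in Star CSC against 607.9 to 648 in Stylo CSC, and their part in the ALPL difference was not tested.

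The change on sorting differed between the lines in several of these genes too. It was lower in CMT-Star than in CMT-Stylo for BGN (-3.78 ± 0.21), COL1A2 (-3.43 ± 0.32), THY1 (-3.12 ± 0.19) and BMP7 (-2.64 ± 0.13), as it was for ALPL. It was higher in CMT-Star for CA2 (4.23 ± 0.84), MSX2 (2.10 ± 0.31), BMPR1B (1.55 ± 0.18) and PRNP (1.01 ± 0.21). The difference for PRNP kept its call in 10 of 19 alternatives (0.35 to 1.15 over all of them), that for MSX2 lost it with spike-in scaling (1.67, adjusted p = 0.0633) and normexp (0.99), and that for BMPR1B with spike-in scaling (adjusted p = 0.235). CD44 also differed (-1.87 ± 0.19), but its protein was used to sort the cells. Bone genes listed beside these and named on the array were often undetected: MEPE, a bone matrix phosphoprotein, and CALCR, ACP5 and MMP9, genes of osteoclasts, were well above background on no array, and the parathyroid hormone receptor PTH1R on 1.

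**Figure D5:**
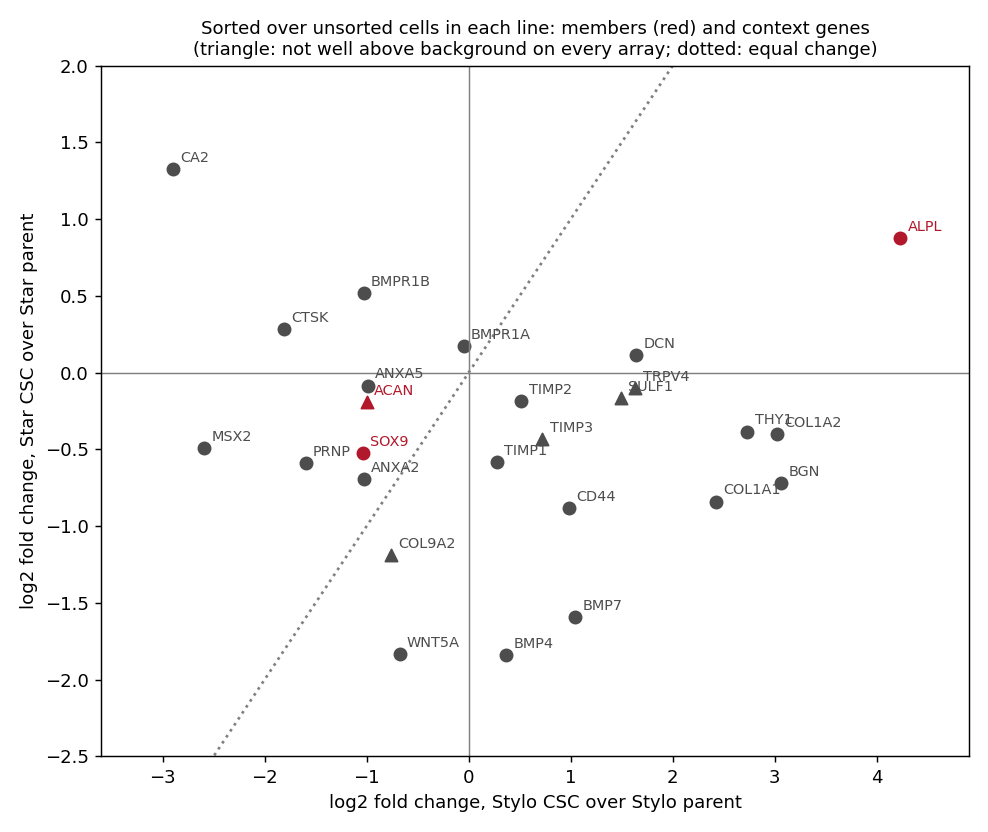
log2 fold change on sorting in CMT-Stylo (horizontal, Stylo CSC over Stylo parent) and in CMT-Star (vertical, Star CSC over Star parent) for 3 of the 4 genes (red) and for the listed cartilage, bone, matrix enzyme and GPI-anchored genes measurable in both (grey), 26 genes in all. Each point is 1 gene and the dotted line marks equal change; ALPL lies farthest right, at 4.23 and 0.88, and BGN, COL1A2, THY1 and COL1A1 lie right of 2 with values below 0 on the vertical axis.

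The genes whose scaled level followed each of the 4 most closely over the 8 arrays differed between them. For SOX9 they were SELENOH (Pearson r = 0.994), LOC476445 (0.993) and RPS10 (0.990), and 106 of 975 named genes (10.9%) reached 0.95. For ALPL they were the retinoic acid receptor RARA (0.987), the epithelial cadherin CDH1 (0.984) and the nucleoside transporter SLC29A1 (0.981), with 19 genes at 0.95 or above (1.95%). For COL2A1 they were ALDH3A1 (0.987), the endothelial receptor KDR (0.987) and HACD1 (0.981), with 9 such genes (0.923%), and KDR and HACD1 were, like COL2A1, below background on every Stylo array. For ACAN they were ADRB1 (0.978), MADCAM1 (0.961) and MSX2 (0.959), with 4 such genes (0.41%), and ADRB1 was itself well above background on only 3 arrays. The 8 points of each correlation share 4 groups, 2 slides and the array scaling, so these values describe likeness of pattern on these arrays alone.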

How the data were processed

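RNA of 8 samples was labelled with Cy3 and hybridised to a 1-colour canine array. Per the file headers, the authors' deposited scanner files came from Agilent's Feature Extraction software (11.5.1.1) and give for each spot a processed intensity, median and background signals and flags. The authors' series matrix holds log2 values. On probes well above background on all 8 arrays these equalled the 75th-percentile-scaled log2 signal described below, up to a constant per array (constants differed by at most 0.00755), centred on each probe's median (column medians -0.27 to 1.01). Groups came from the sample titles.

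Control spots and outlier spots (6 to 36 per array) were left out, the log2 processed signal was averaged where a probe had several spots, and the 75th percentile of the array was then taken away from it. A probe was well above background on an array if at least 0.5 of its spots were, and was tested if this held on both arrays of a group and it had a value on all 8 arrays. A probe below background in a group has only a bound there. Signal over background and 2 arrays per group limit precision. A RefSeq gene table (UU_Cfam_GSD_1.0, another build than the array's, so names only) named 2353 of 43603 probes. For a gene with several tested probes, the one brightest on average stands for the gene.

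limma 3.58.1 in R 4.3.3 fitted 4 group means to all 8 arrays, two-sided, with Benjamini-Hochberg adjustment over 26737 probes, and was tested on simulated data. Members, lists, markers and the rule for named genes (in each list, the call of greatest size in each direction, and 3 genes of most like pattern) were chosen with earlier results of these data known. For lists, a call with both groups below background was not counted, but the shares over all tested probes include such calls. Some genes outside the rule (COL1A1, and COL1A2, DCN, BGN, CDH1 and KRT19 in some comparisons, TIMP1's scaling values and the undetected bone genes) were named after their values were seen. Same-numbered replicates had correlated deviations of -0.07 to 0.07, so they share only a number. Alternatives were median, detected-probe, quantile, cyclic loess and spike-in scaling, normexp (offset 50) on the median signal, other filters, an intensity trend, the replicate block, only the arrays compared, the deposited matrix, the mean of a gene's probes and leaving out each array.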

Additional observations from a re-analysis of the deposited data

Results flagged for a closer look

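ALPL changed differently on sorting in the 2 lines by a test of the difference itself. Its scaled level rose by 4.23 ± 0.16 in Stylo CSC over Stylo parent and stood 0.88 ± 0.16 higher in Star CSC than in Star parent, a difference of -3.35 ± 0.23 on the log2 scale for CMT-Star less CMT-Stylo (limma, adjusted p = 9.29e-05, 2 arrays per group). Such a difference was called for 52.1% of tested probes. Line and slide cannot be told apart here, although each change on sorting lies within 1 slide. Groups of 2 arrays could not be examined for single outlying arrays.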

How the results depend on the processing

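For the 4 genes, 317 of 357 alternatives kept the direction and the side of the threshold. Another 22 lost a call, 5 gained one and 13 turned the sign. The cause of each change was not tested. These alternatives are not independent checks. Some cannot change the fold, such as the replicate block or leaving out an array of a group not compared, and the deposited matrix holds nearly the same values. Median scaling moved ACAN to -0.99 in Star parent against Stylo parent, SOX9 to -0.60 and ACAN to -0.57 in Stylo CSC against Stylo parent, and ACAN to 0.040 and ALPL to 1.11 in Star CSC against Star parent. The detected-probe percentile gave -0.83 for SOX9 and -0.80 for ACAN in Stylo CSC against Stylo parent. Quantile normalization gave -0.93 and -0.69 there, and 0.11 for ACAN in Star CSC against Star parent. Cyclic loess gave -0.37 for ACAN in Stylo CSC, and -0.92 for COL2A1 and 0.13 for ACAN in Star CSC against Star parent. Spike-in scaling gave -0.33 for ACAN in Star parent against Stylo parent, 1.06 for SOX9 and 1.09 for ACAN in Stylo CSC against Stylo parent, and 1.14 for SOX9, 0.34 for COL2A1, 1.47 for ACAN and 2.54 for ALPL in Star CSC against Star parent. In Star CSC against Stylo CSC it gave -1.05 for SOX9, 0.048 for ACAN and -1.05 for ALPL, with no call. It shifted the median of all probes to 0.87, 1.82, 1.56 and 0.53 in the 4 comparisons. Both SOX9 and ACAN in Stylo CSC lie below that median.

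Normexp gave -1.40 for COL2A1 and 0.71 (call lost) for ALPL in Star parent against Stylo parent, -0.29 for SOX9 in Stylo CSC against Stylo parent, -0.80 for COL2A1 in Star CSC against Star parent, -0.16 for COL2A1 in Star CSC against Stylo CSC, and -0.25 for SOX9 and 1.31 for ACAN in the difference between lines. It turned the ALPL probes A_11_P0000039339 (-0.78) and A_11_P0000023408 (-1.69) in Stylo CSC, TRPV4 (-0.74) and CDH1 (-0.087) there, TIMP3 in Star parent (-1.21) and MMP3 in Star CSC against Stylo CSC (-0.0012). Its medians over all probes were -0.82, -0.77, -0.23 and -0.25. Spike-in scaling turned COL9A2 in Star CSC against Star parent (0.47) and BMPR1B (1.06) and PRNP (0.50) in Stylo CSC, and quantile normalization turned TIMP1 in Star CSC against Stylo CSC (0.00055). The mean of the tested ALPL probes gave -0.20 in Star parent against Stylo parent. The deposited matrix gave -0.996 for ACAN in Stylo CSC, just under the fold limit, and the fit of only the arrays compared, which is the value within 1 slide, left it at -1.001 without a call.

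Leaving out 1 array gave -1.89 to -0.90 for ACAN in Star parent against Stylo parent, -1.27 to -0.80 for SOX9 and -1.50 to -0.50 for ACAN in Stylo CSC against Stylo parent, 0.64 to 1.11 for ALPL in Star CSC against Star parent, and 0.31 to 1.31 for ACAN in the difference between lines. The calls of ACAN in Star parent and of SOX9 in Stylo CSC ended without Stylo parent replicate 2, ALPL in Star CSC gained a call without Star parent replicate 2, and ACAN gained a difference between lines without Stylo parent replicate 1. ACAN in Stylo CSC lost its call without either Stylo CSC array or without Stylo parent replicate 2.

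Counts of called probes were 15117, 14440, 2591 and 7866 in the 4 comparisons and 13941 for the difference between lines. Without the filter they were 26671 and 28593 in the first 2 and 21932 for the difference. Spike-in scaling gave 21759 in Star CSC against Star parent and 8230 for the difference. Normexp gave 1131 in Star CSC against Star parent and 3993 in Star CSC against Stylo CSC. With the replicate block the counts were 15099, 14415, 2509, 7838 and 13896, and ALPL in Stylo CSC stayed at 4.23 (limma, adjusted p = 9.64e-05). The block changed no call of the 4 genes, and its pairing rests on the replicate numbers in the labels alone. Limits lie in signal over background: COL2A1 on the Stylo arrays, 3 of the 4 ALPL probes and ACAN in Stylo parent sit at or near it, and the Stylo parent arrays are the dimmest.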
